A study of Mus musculus with 36 samples.

Results

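Lungs of untreated A/J mice were compared with lungs of untreated C3H mice at weeks 6, 9 and 12 of a study of the tobacco carcinogen NNK. The comparison used 12 of the 36 arrays of the series, 6 of A/J and 6 of C3H, with 2 arrays for each strain and week. Arrays were chosen by their labels: strain, no treatment, and time after exposure. These mice are the controls of groups that received NNK, a nitrosamine formed from nicotine, in 4 weekly injections of 100 mg/kg. A/J and C3H are inbred strains kept in 1 animal facility. The labels give no substrain, age, sex or allele for either strain, and nothing in them ties an array to an animal. Every p-value below is therefore set against the spread between arrays, which may be technical. The strain of an array cannot be told apart from anything in housing, handling or hybridisation that went with the strain.

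A/J mice are the classic susceptible strain for chemically induced lung adenoma, and C3H mice develop far fewer lung tumours after the same carcinogens. Much of the difference in susceptibility among mouse strains maps to the Pas1 locus on distal chromosome 6. A/J also carries known loss-of-function alleles, among them those of Dysf, which encodes the membrane repair protein dysferlin, and of Hc, which encodes complement component C5. The 2 strains share the class II end of the major histocompatibility complex (MHC) and differ in its class III and distal class I parts, where A/J has the d haplotype and C3H the k haplotype.

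Total lung RNA was hybridised to Affymetrix Mouse Gene 1.0 ST arrays, on which several probes read each gene. The median deposited intensity of the 12 arrays lay between 285.4 and 340.7. Levels below are quantile-normalized values of log2(intensity + 16), and differences are A/J minus C3H on that log2 scale. Arrays of the same strain and week correlated at 0.985 to 0.995 over the tested genes, while the lowest correlation within a strain was 0.970 and the highest between the strains 0.976. The first principal component held 56.0% of the variance and placed the 6 A/J arrays on 1 side and the 6 C3H arrays on the other. The spread between arrays was wider in A/J: the median SD within a week was 0.102 in A/J and 0.0641 in C3H. Sftpc, which encodes surfactant protein C of alveolar type 2 cells, ranged over 13.90 to 13.98 in A/J arrays, against 13.95 to 14.05 in C3H arrays. The airway secretoglobin gene Scgb1a1 ranged over 13.53 to 13.85 in A/J arrays, against 13.74 to 13.95 in C3H arrays, and the alveolar type 1 gene Ager over 13.27 to 13.47 in A/J arrays, against 13.24 to 13.38 in C3H arrays. All arrays thus carried defining transcripts of lung, and none of the 3 genes was called. An array reads bulk tissue, so fewer cells of a type and less RNA per cell cannot be told apart in any result that follows. Probe sequences were not used, so a difference in transcript level and a strain variant under a probe cannot be told apart either.

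Many genes differed between the strains, mostly by little. Of 14953 genes tested, 6621 (44.3%) had an adjusted p under 0.05: 2651 (17.7%) were higher in A/J and 3970 (26.5%) lower. The median size of a called difference was 0.251. A smaller set of 529 genes (3.54%) was called with a difference of at least 1.5-fold, 183 (1.22%) higher and 346 (2.31%) lower in A/J, and 120 of them differed at least 2-fold. In 3573 genes (23.9%) the 6 A/J arrays did not overlap the 6 C3H arrays. These shares are the background for every count of gene group members below.

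The same strain difference was then measured in arrays that share no sample with this comparison. In the 12 NNK-treated arrays of weeks 6 to 12, 7264 genes (48.6%) were called between the strains, and 458 (3.06%) were called at 1.5-fold or more. Of the 529 genes, 524 had the same sign in NNK-treated arrays and 489 were also called there with that sign. The genes called at 1.5-fold or more in both comparisons numbered 339, which is 64.1% of the untreated set and 74.0% of the NNK-treated set, and 0 of them changed sign. Over the 529 genes the 2 sets of differences correlated at r = 0.946, a description across genes, which are not independent replicates. In the 8 untreated arrays of weeks 0 and 3, 3981 genes (26.6%) were called, and 520 of the 529 genes kept their sign. The 5 genes with an opposite sign in NNK-treated arrays were Arg2, Igkv10-96, Lrg1, Rgs18 and Snord14e, named after their values were seen. Of these, Snord14e was called in both, at -0.91 in untreated and 0.56 in NNK-treated arrays, and its call in untreated arrays was lost without week 9 (adjusted p = 0.095) or week 12 (0.058). The call of Rgs18 was lost without week 6 (0.0952) or week 9 (0.0937).

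**Figure D1:**
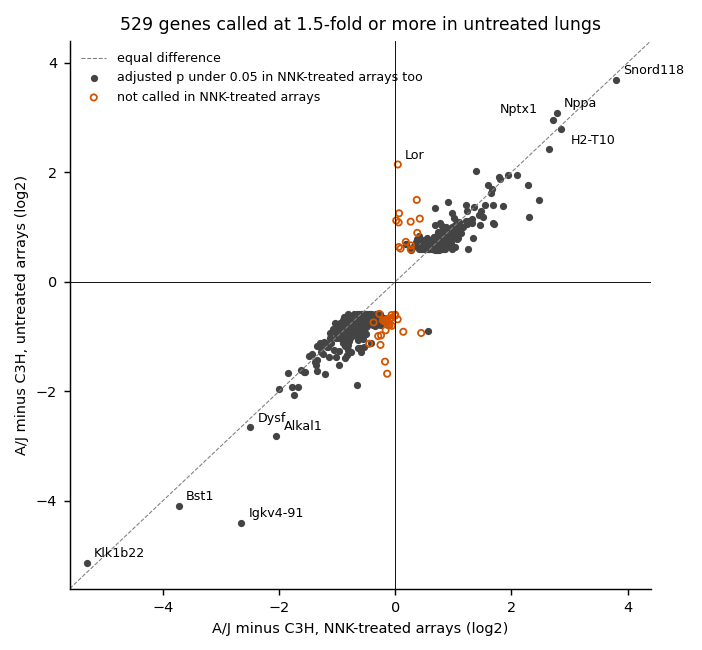
Each point is 1 of the 529 genes called at 1.5-fold or more between untreated A/J and C3H lungs, with its A/J minus C3H difference in 12 NNK-treated arrays on the x axis and in the 12 untreated arrays on the y axis (log2). Filled points were also called in NNK-treated arrays. Points scatter along the dashed line of equal difference, and Lor, Igkv4-91, Ccl3 and Snord14e are among those away from it.

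Of the 15 largest positive differences among genes whose strains did not overlap, 8 belonged to small RNA genes. Snord118 encodes U8, a small nucleolar RNA needed for processing of the large-subunit ribosomal RNA. Its lowest, median and highest levels were 9.26, 10.56 and 11.39 in A/J lungs, against 6.34, 6.66 and 7.60 in C3H lungs. Every A/J array was above every C3H array, and the difference was 3.69 ± 0.26 (SE, adjusted p = 7.79e-07), or 12.9-fold. Nptx1, which encodes a pentraxin first described at synapses, measured 10.14, 10.52 and 10.61 in A/J lungs, against 7.23, 7.50 and 7.84 in C3H lungs. Its A/J arrays stood close together and far above all C3H arrays, with a difference of 2.96 ± 0.098 (SE, adjusted p = 2.33e-09). H2-T10, a nonclassical MHC class I gene of the distal T region, measured 11.03, 11.26 and 11.61 in A/J lungs, against 8.33, 8.46 and 8.76 in C3H lungs, a difference of 2.79 ± 0.09 (SE, adjusted p = 2.33e-09). In NNK-treated arrays the 2 genes differed by 2.72 and 2.86, and in untreated arrays of weeks 0 and 3 by 2.80 and 2.16.

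The 15 also hold protein-coding genes for secreted proteins. Bpifb1, a secreted protein of airway epithelium related to bactericidal permeability proteins, measured 10.47, 11.33 and 11.68 in A/J lungs, against 8.36, 9.54 and 9.88 in C3H lungs. The difference was 1.91 ± 0.26 (SE, adjusted p = 9.51e-05), and the C3H arrays spread over more than 1 log2 unit. Ltf, which encodes the iron-binding protein lactoferrin of secretions and neutrophil granules, measured 8.50, 8.85 and 9.44 in A/J lungs, against 6.49, 7.44 and 8.28 in C3H lungs, a difference of 1.49 ± 0.25 (SE, adjusted p = 4.27e-04). Both strains scattered in Ltf, and the weekly differences were 0.78, 1.41 and 2.28 at weeks 6, 9 and 12. Of 15 tested neutrophil genes, 3 were higher and 3 lower in A/J (5 lower without the first A/J array of week 12). Fjx1, a Golgi kinase-related secreted protein of the four-jointed family, differed by 1.70 ± 0.095 (SE, adjusted p = 1.13e-07). Cspg4b, annotated as a chondroitin sulfate proteoglycan paralog, differed by 1.77 ± 0.072 (SE, adjusted p = 9.13e-09) with A/J arrays between 10.49 and 10.69.

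The remaining genes among the 15 largest were the small nucleolar RNA genes Snora33 (2.42), Snora73a (1.96), Snord87 (1.95) and Snora73b (1.87), the microRNA gene Mir680-2 (2.03), the vault RNA gene Vaultrc5 (1.76), the RNase P RNA-like gene Rprl1 (1.61) and the olfactory receptor gene Olfr1184 (1.49). Snora73a and Snora73b are near-identical copies, so their separate values are uncertain. Olfr1184 is the least certain of the 15, with A/J arrays from 7.12 to 10.89, an adjusted p of 0.037, and a call that was lost without the first A/J array of week 9 (adjusted p = 0.0876), without any of the C3H arrays of weeks 6 and 9 (0.0654 to 0.082) and without week 6 or week 9 (0.0853 to 0.181). It had a difference of 0.37 in NNK-treated arrays that was not called.

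Klk1b22 and Bst1 led the 15 largest negative differences among genes whose strains did not overlap. Klk1b22, a serine protease of the kallikrein cluster on chromosome 7, measured 4.55, 5.54 and 5.67 in A/J lungs, against 10.17, 10.52 and 10.80 in C3H lungs. The A/J values lie near the floor that the added 16 sets, so the difference of -5.13 ± 0.16 (SE, adjusted p = 2.33e-09) understates the ratio of intensities. Klk1b genes are close paralogs, and the share of signal from other members of the cluster was not resolved. Bst1, or CD157, an ectoenzyme of bone marrow stromal and myeloid cells that makes cyclic ADP-ribose, measured 5.95, 6.46 and 6.87 in A/J lungs, against 10.37, 10.49 and 10.63 in C3H lungs. All A/J arrays were at least 3 log2 units below all C3H arrays, and the difference of -4.09 ± 0.14 (SE, adjusted p = 2.94e-09) recurred at -3.73 in NNK-treated arrays and -4.02 at weeks 0 and 3. Alkal1, a secreted ligand of the receptor tyrosine kinases ALK and LTK, measured 6.88, 7.23 and 7.60 in A/J lungs, against 9.96, 10.06 and 10.19 in C3H lungs, a difference of -2.81 ± 0.1 (SE, adjusted p = 2.94e-09).

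Dysf measured 6.53, 6.78 and 7.34 in A/J lungs, against 9.43, 9.49 and 9.64 in C3H lungs. The difference was -2.65 ± 0.11 (SE, adjusted p = 1.17e-08), and it was -2.49 in NNK-treated arrays and -3.06 at weeks 0 and 3. A/J mice lack dysferlin because of a retrotransposon in an intron of Dysf, and the arrays labelled A/J were the low ones throughout. The immunoglobulin light chain gene Igkv4-91 measured 6.04, 6.90 and 7.97 in A/J lungs, against 9.46, 11.36 and 12.87 in C3H lungs. Its C3H arrays spread over more than 3 log2 units, and the difference of -4.40 ± 0.43 (SE, adjusted p = 8.02e-06) was -2.65 in NNK-treated arrays and -1.32, not called, at weeks 0 and 3. Igkv10-96 (-0.94), Igkv19-93 (-1.13) and Igkv8-30 (-1.46) were also lower in A/J, the first without a call when week 9 was left out (adjusted p = 0.0873) and the second when week 12 was (0.0607). Over the 7 tested kappa variable genes the median was -0.94 here, but 0.06 in NNK-treated arrays and 0.62 at weeks 0 and 3. Variable segments are many similar copies, and which of them a probe set reads is uncertain.

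Ccl3, the macrophage inflammatory chemokine, measured 8.47, 9.32 and 9.46 in A/J lungs, against 10.38, 10.80 and 11.40 in C3H lungs. It was lower in all 6 A/J arrays, by -1.68 ± 0.2 (SE, adjusted p = 4.38e-05), but the strains differed by only -0.14 in NNK-treated arrays, which was not called. Cxcr1, a receptor for neutrophil-attracting CXC chemokines, differed by -1.68 ± 0.16 (SE, adjusted p = 5.96e-06) and Dnase1l3, a nuclease of dendritic cells and macrophages that clears DNA from apoptotic cells, by -1.93 ± 0.14 (SE, adjusted p = 8.14e-07). Rnase2a, one of the eosinophil-associated ribonucleases, differed by -1.89 ± 0.24 (SE, adjusted p = 6.19e-05), against -0.66 in NNK-treated arrays. The thrombin-receptor family member F2rl2 differed by -1.65 ± 0.18 (SE, adjusted p = 1.83e-05) and the orphan receptor gene Gpr141b by -1.67 ± 0.095 (SE, adjusted p = 1.45e-07). Nme7, a centrosomal and ciliary member of the nucleoside diphosphate kinase family (-1.92), Abca17, an ABC transporter (-1.96), and the zinc finger genes Zfp605 (-2.06) and Zfp985 (-1.65) complete the 15. Each of the 15 was lower in all 6 A/J arrays than in any C3H array, as their choice required.

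**Figure D2:**
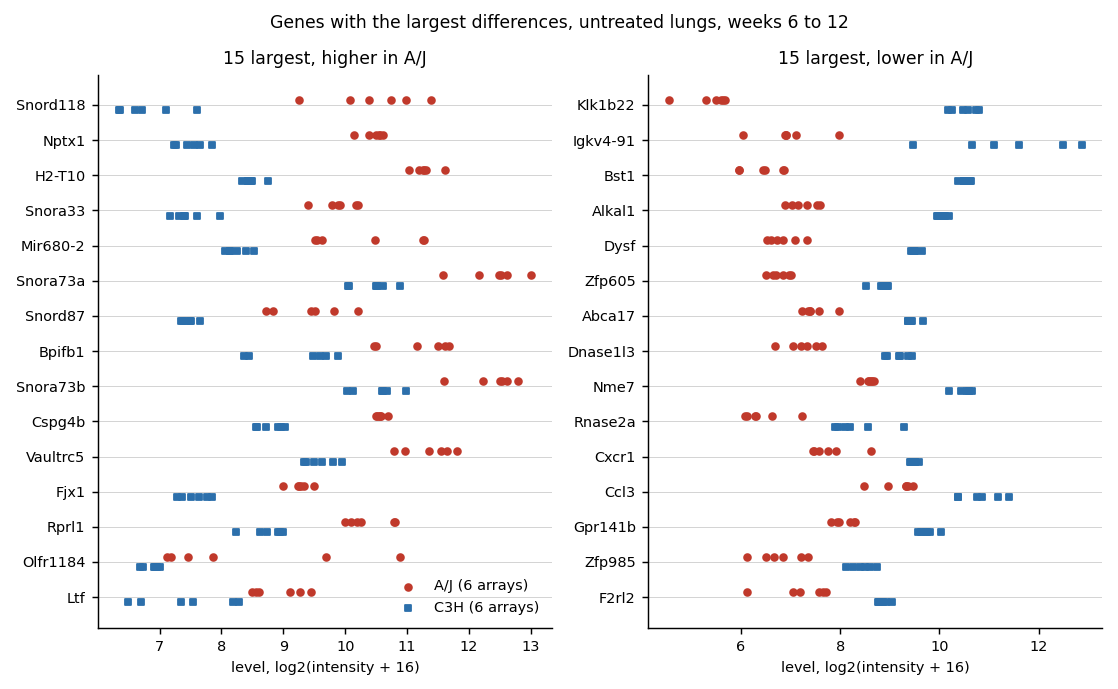
Level of the 15 genes with the largest positive differences (left) and the 15 with the largest negative differences (right) in each array, as log2(intensity + 16), with A/J as circles above and C3H as squares below. The 6 points of A/J and the 6 of C3H do not overlap for any gene shown, which the choice of genes required, and Snord118, Olfr1184 and Igkv4-91 spread widely within a strain.

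Of 9 tested genes on a list of alleles known to differ among mouse strains, 4 were higher and 4 lower in A/J. Hc ranged over 11.08 to 11.28 in A/J arrays, against 12.26 to 12.43 in C3H arrays, a difference of -1.16 ± 0.046 (SE, adjusted p = 8.29e-09). Naip5, the flagellin sensor whose A/J allele permits growth of Legionella in macrophages, differed by -0.73 ± 0.052 (SE, adjusted p = 7.16e-07), and its neighbours Naip2 and Naip6 by -0.70 and -0.71. The Naip genes are close paralogs, and cross-reading between their probe sets was not resolved. The mitochondrial transhydrogenase gene Nnt was 1.43-fold higher in A/J (0.51 ± 0.041 (SE, adjusted p = 1.93e-06)), the glyoxalase gene Glo1 differed by 0.42 ± 0.082 (SE, adjusted p = 0.00138), and the lipopolysaccharide receptor gene Tlr4 by 0.38 ± 0.053 (SE, adjusted p = 1.40e-04). Alad, an enzyme of haem synthesis, was lower by -0.32 ± 0.038 (SE, adjusted p = 3.86e-05). The dioxin receptor gene Ahr differed by 0.16 and was called, but not without week 6 (adjusted p = 0.121), week 12 (0.131) or the second array of either strain at week 6 (0.0508 to 0.0511). The interleukin 3 receptor gene Il3ra, at -0.08, was not called, except without the second A/J array of week 9 (0.0245).

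Genes of the Pas1 region differed little. Of 7 tested, Lrmp, an endoplasmic reticulum protein of lymphocytes, was higher in A/J by 0.45 ± 0.06 (SE, adjusted p = 1.04e-04) and the dystrophin-associated gene Sspn by 0.38 ± 0.051 (SE, adjusted p = 9.87e-05). Rassf8 was also higher, at 0.19, and Etfrf1 was lower, at -0.28. Casc1 (0.11), Itpr2 (0.02) and Bhlhe41 were not called. The 4 calls of 7 compare with the background of 44.3%, and none reached 1.5-fold. Etfrf1 was not called without week 9 (adjusted p = 0.0878), Rassf8 not without week 12 (0.0534), and Casc1 was called without the first A/J array of week 9 (0.0214).

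Within the MHC, the large differences lay in 3 short stretches outside the class II segment. C4b, the complement C4 gene, measured 11.21, 11.31 and 11.45 in A/J lungs, against 9.78, 9.98 and 10.09 in C3H lungs, and its paralog C4a, the sex-limited protein gene, 9.51, 9.66 and 9.77 in A/J lungs, against 8.12, 8.25 and 8.38 in C3H lungs. The 2 genes differed by 1.37 ± 0.046 (SE, adjusted p = 2.33e-09) and 1.39 ± 0.051 (SE, adjusted p = 3.55e-09), and the adjoining kinase gene Stk19 by 0.69 ± 0.048 (SE, adjusted p = 6.32e-07). C4a and C4b are near-identical copies, so their probe sets may read both transcripts. The k haplotype of C3H is classically known for low serum C4. In the distal class I segment, H2-Q5 differed by 1.16 ± 0.078 (SE, adjusted p = 5.25e-07), H2-Q10 by 0.74 ± 0.068 (SE, adjusted p = 4.86e-06) and H2-T10 as described above. Class I genes are highly similar and polymorphic, which makes values of single members uncertain.

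Over the whole region, 8 of 20 tested genes of the class II segment were higher and 6 lower in A/J, with none at 1.5-fold. In the class III segment 6 of 49 were higher and 14 lower, 3 of them at 1.5-fold, and in the distal class I segment 9 of 49 were higher and 6 lower, 3 of them at 1.5-fold. All 6 genes past 1.5-fold were higher in A/J. The called shares were 70.0% in the class II, 40.8% in the class III and 30.6% in the distal class I segment, against 44.3% over all genes. Toward the distal end, the imprinting regulator Zfp57 was lower by -0.57 ± 0.047 (SE, adjusted p = 2.40e-06) and Gabbr1, a GABA receptor subunit, by -0.53 ± 0.053 (SE, adjusted p = 1.08e-05).

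**Figure D3:**
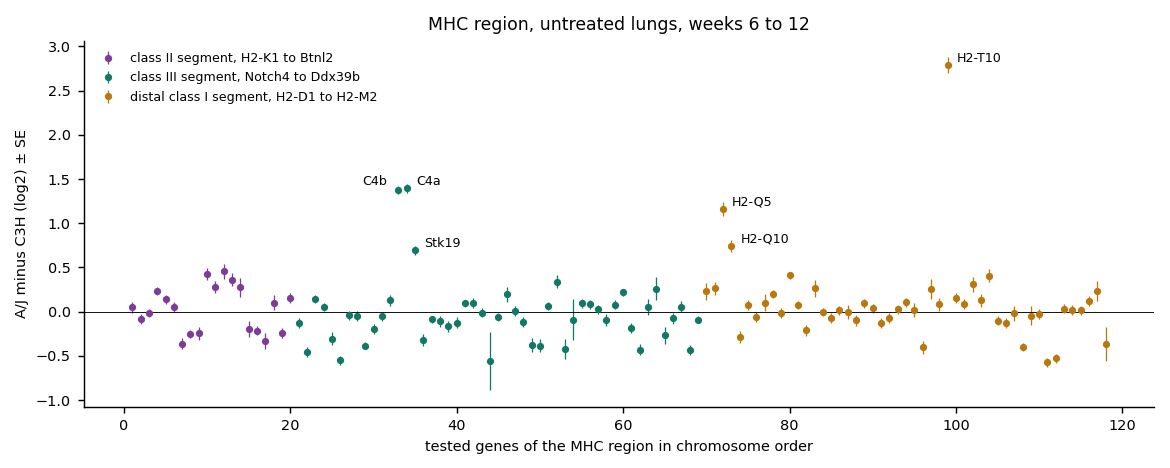
A/J minus C3H difference (log2, with its standard error) of 118 tested genes of the MHC region, in the order of the gene annotation, coloured by segment. The 6 labelled genes were called at 1.5-fold or more, and the differences of the class II genes on the left lie between -0.36 and 0.45.

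Class I antigen-processing genes were more often higher in A/J, and class II pathway genes more often lower. Among 24 tested genes of the class I and peptide-loading list, 10 were higher and 2 lower in A/J, with a median of 0.19. They include the immunoproteasome subunits Psmb9 (0.42) and Psmb8 (0.45) and the proteasome activator gene Psme2 (0.32). Among 12 class II pathway genes, 1 was higher and 7 lower, with a median of -0.23. The lower ones include the thiol reductase gene Ifi30 (-0.59), the invariant chain gene Cd74 (-0.25) and the chain genes H2-Ea (-0.25), H2-Aa (-0.22) and H2-Eb1 (-0.33). With the arrays of week 6 left out, 4 lower calls were made, without those of H2-Ea (adjusted p = 0.0566) and H2-Eb1 (0.131). H2-Eb1 was not called without week 12 either (0.0877).

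Most alveolar macrophage genes were lower in A/J. Alveolar macrophages live on the airspace surface, where they clear surfactant and particles. Of 23 tested marker genes, 15 were lower and 3 higher in A/J, and the median was -0.45, against -0.02 over all tested genes. In 12 of them all A/J arrays were below all C3H arrays. Chil3, the secreted chitinase-like protein Ym1, measured 7.99, 8.62 and 8.74 in A/J lungs, against 9.38, 9.72 and 10.10 in C3H lungs, a difference of -1.19 ± 0.13 (SE, adjusted p = 2.15e-05). The lysosomal glycoprotein gene Cd68 ranged over 10.89 to 11.09 in A/J arrays, against 11.67 to 11.95 in C3H arrays, a difference of -0.84 ± 0.043 (SE, adjusted p = 6.51e-08). Atp6v0d2, a proton pump subunit, differed by -0.81 ± 0.052 (SE, adjusted p = 3.77e-07).

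Further lower members were the integrin gene Itgax (-0.46), the macrophage regulator Pparg (-0.49) and the cholesterol exporter Abcg1 (-0.45). The fatty acid binding protein gene Fabp1 was higher (0.73). Fabp4, which is also an adipose gene, measured 9.06, 10.05 and 11.23 in A/J lungs, against 8.97, 9.33 and 9.63 in C3H lungs, and its call (0.80 ± 0.28 (SE, adjusted p = 0.0362)) was lost without week 6 or 12 and without 6 single arrays of these weeks, at adjusted p = 0.0572 to 0.223. The scavenger receptor gene Marco differed by 0.26 ± 0.096 (SE, adjusted p = 0.0424), a call lost without any of 9 single arrays or without week 6 or 12, at 0.0542 to 0.191. The median of the list was -0.34 in NNK-treated arrays and -0.43 at weeks 0 and 3. Csf2rb (-0.76), which encodes the beta chain of the GM-CSF receptor, and its neighbouring paralog Csf2rb2 (-0.65) were lower as well. Both were looked up after the values were seen.

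Of 17 tested dendritic cell genes, 2 were higher and 7 lower in A/J, and 8 were not called. Xcr1, the chemokine receptor that marks type 1 dendritic cells, measured 7.71, 8.46 and 8.55 in A/J lungs, against 9.68, 9.78 and 9.97 in C3H lungs, a difference of -1.47 ± 0.12 (SE, adjusted p = 1.82e-06). Clec9a, their receptor for dead cells, differed by -1.18 ± 0.1 (SE, adjusted p = 3.08e-06), and Flt3, the growth factor receptor of the lineage, by -0.98 ± 0.095 (SE, adjusted p = 8.07e-06). The plasmacytoid marker Siglech (-0.58) and the acid amidase gene Naaa (-0.38) were lower, while the migration receptor Ccr7 (0.59) was higher. Zbtb46, a transcription factor of classical dendritic cells, differed by -0.06 and was not called.

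Cytotoxic lymphocyte genes were mainly lower in A/J, and T and B cell genes were mixed. Of 17 tested genes of natural killer and cytotoxic cells, 1 was higher and 10 lower. Granzyme A, Gzma, measured 7.50, 7.93 and 9.22 in A/J lungs, against 9.15, 9.43 and 9.59 in C3H lungs, and 1 A/J array reached into the C3H range. Its difference was -1.35 ± 0.21 (SE, adjusted p = 2.64e-04). The receptor genes Klra3 (-1.01) and Klrb1b (-0.57) lie in polymorphic families, while Ncr1, the activating receptor NKp46 (-0.49), lies outside them. Among 21 T cell genes, 7 were higher and 5 lower: the CD8 chain gene Cd8b1 (0.50) and Cd6 (0.32) were higher, Il7r (-0.58), Il2ra (-0.62) and Cd4 (-0.37) lower. Without week 6 the higher T cell genes numbered 4. Among 21 B and plasma cell genes, 6 were higher and 3 lower: the B cell genes Pax5 (0.66) and Fcer2a (0.89) were higher, and the secretory-pathway genes Xbp1 (-0.40) and Derl3 (-0.67) lower. Without week 6 or without week 9, 3 of the list were higher.

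Interferon-stimulated genes were more often lower in A/J, and the GTPase genes of the same response more often higher. Interferons bind cell-surface receptors and activate STAT and IRF factors, which act on promoters through the interferon-stimulated response element (ISRE). Of 39 tested interferon-stimulated genes, 7 were higher and 21 lower in A/J, with a median of -0.22. The higher calls numbered 4 without the second A/J array of week 9 or the second C3H array of week 9 or 12. Of 11 GTPase genes of the same response, 8 were higher and 0 lower, with a median of 0.31. The regions upstream of 3 called genes, shown because Gbp5 is one of the GTPase genes that were higher and Ifit3 and Oas1a are among the interferon-stimulated genes that were lower, each hold an ISRE. The 250 bases before the annotated start are given in RefSeq's sequence of GRCm38.p6, the C57BL/6J reference and thus neither strain's own sequence, with matches on either strand in capitals. A match is 2 GAAA blocks with any 2 bases between them, a short form of the ISRE.
Ifit3 (chr19:34583279-34583528, + strand): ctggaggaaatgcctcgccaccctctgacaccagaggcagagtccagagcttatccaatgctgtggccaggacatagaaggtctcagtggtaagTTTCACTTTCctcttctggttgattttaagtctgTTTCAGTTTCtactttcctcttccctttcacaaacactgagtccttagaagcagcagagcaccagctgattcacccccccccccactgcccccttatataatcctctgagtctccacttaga
Oas1a (chr5:120907526-120907775, - strand): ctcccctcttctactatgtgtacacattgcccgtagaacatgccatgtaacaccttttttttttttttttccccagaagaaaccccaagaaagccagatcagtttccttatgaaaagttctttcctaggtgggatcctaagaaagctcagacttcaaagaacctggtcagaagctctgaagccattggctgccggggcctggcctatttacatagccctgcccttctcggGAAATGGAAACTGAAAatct
Gbp5 (chr3:142496684-142496933, + strand): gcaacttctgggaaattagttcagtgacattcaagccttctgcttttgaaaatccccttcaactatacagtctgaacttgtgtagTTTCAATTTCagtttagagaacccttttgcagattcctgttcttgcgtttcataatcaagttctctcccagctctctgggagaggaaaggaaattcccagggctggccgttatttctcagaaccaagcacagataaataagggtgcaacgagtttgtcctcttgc
Ifit3 holds 2 matches, Oas1a 2 that overlap each other, and Gbp5 1. The motif was present in 14 of the 29 interferon-stimulated genes and in 5 of the 5 GTPase genes with an upstream sequence, against 3.46% of all 27025 genes with one. The 3 regions shown all hold matches, but the lower genes Irf7 and Oasl2 held 0. Bst2 and Oas1c, interferon-stimulated genes that were higher in A/J, held 2 each. A match is a description of these letters and not a measured binding site.

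Among the lower genes, the 2′-5′ oligoadenylate synthetase gene Oas2 measured 8.45, 8.51 and 8.65 in A/J lungs, against 9.76, 10.04 and 10.41 in C3H lungs. The strains were clearly apart, with a difference of -1.52 ± 0.075 (SE, adjusted p = 4.50e-08) and -0.97 in NNK-treated arrays. Ifit3, a translation-blocking antiviral protein with the upstream region shown above, measured 10.91, 11.00 and 11.22 in A/J lungs, against 11.57, 11.61 and 11.89 in C3H lungs, a difference of -0.64 ± 0.062 (SE, adjusted p = 7.97e-06). Ifit1 (-0.61), Oas1a (-0.55), Oasl2 (-0.53) and the transcription factor gene Irf7 (-0.53) were lower as well. Bst2, the virus-tethering protein tetherin, was higher at 0.38, as were Ifit2 (0.23) and Oas1c (0.21), relatives of lower genes. The call of Oas1c was lost without week 9 or 12 or any of 6 of their arrays, at adjusted p = 0.0588 to 0.219.

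Among the GTPase genes, Gbp4, which encodes a guanylate-binding protein that attacks pathogen vacuoles, measured 11.43, 11.59 and 11.93 in A/J lungs, against 10.45, 10.55 and 10.87 in C3H lungs, a difference of 1.04 ± 0.074 (SE, adjusted p = 7.95e-07). Its chromosome 5 neighbours Gbp9 and Gbp11 differed by 0.95 ± 0.063 (SE, adjusted p = 4.63e-07) and 0.59 ± 0.058 (SE, adjusted p = 9.09e-06). On chromosome 3, Gbp5 differed by 0.50 ± 0.1 (SE, adjusted p = 0.00191) and Gbp2b by 0.37 ± 0.06 (SE, adjusted p = 4.08e-04), and 3 members of the list were not called. Guanylate-binding protein genes are close paralogs, which leaves the size of single values uncertain. The GTPase median was 0.47 in NNK-treated arrays and 0.36 at weeks 0 and 3. The interferon-stimulated median was -0.10 and -0.21 in the same arrays.

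Pattern recognition and complement genes were more often lower than higher. Of 17 toll-like and nucleic acid receptor genes, 2 were higher and 11 lower. The neighbouring X-linked genes for the RNA sensors Tlr7 and Tlr8 differed by -0.70 ± 0.056 (SE, adjusted p = 1.80e-06) and -0.61 ± 0.076 (SE, adjusted p = 5.11e-05), and Tlr13 (-0.54), Tlr9 (-0.58) and the toll-like receptor relative Cd180 (-0.71) were lower too. Tlr1, which pairs with Tlr2 to bind lipopeptides, was higher in A/J at 8.46 to 8.77 in A/J arrays, against 7.42 to 8.01 in C3H arrays, a difference of 0.88 ± 0.09 (SE, adjusted p = 1.19e-05). Of 27 complement genes, 4 were higher and 15 lower. The complement median was -0.18 here, but 0.06 in NNK-treated arrays and -0.04 at weeks 0 and 3. Beside Hc, the terminal component gene C6 differed by -1.11 ± 0.066 (SE, adjusted p = 1.98e-07), the C5a receptor gene C5ar1 by -0.92 ± 0.08 (SE, adjusted p = 3.37e-06) and the regulator Cd59a by -1.08 ± 0.077 (SE, adjusted p = 7.95e-07). Of 28 chemokine genes, 1 was higher and 10 lower: the platelet chemokine gene Ppbp (-1.15), Cxcl14 (-0.89) and Ccl19 (-0.80) were lower, and the airway chemokine gene Cxcl17 (0.70) was higher.

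Receptor families of leukocytes were also more often lower. Of 39 tested members of these and the Schlafen families, 4 were higher and 19 lower. Siglec1, the sialic acid receptor of macrophages, differed by -0.94 ± 0.039 (SE, adjusted p = 1.02e-08), and the lectin receptor genes Clec4a3 (-0.73) and Clec7a (-0.61) were lower. Cd300lg, an endothelial receptor for lymphocyte ligands, was higher by 1.02 ± 0.041 (SE, adjusted p = 8.73e-09).

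Airway secretory and ciliated cell genes were more often higher than lower in A/J. Of 20 goblet and secretory genes, 11 were higher and 2 lower, with a median of 0.20. Pigr, the receptor that carries IgA across epithelium, ranged over 10.10 to 10.40 in A/J arrays, against 9.25 to 9.59 in C3H arrays, a difference of 0.76 ± 0.071 (SE, adjusted p = 6.04e-06). The mucin gene Muc5b differed by 0.70 ± 0.14 (SE, adjusted p = 0.00126), and Lcn2, the siderophore-binding protein lipocalin 2, went the other way by -0.80 ± 0.08 (SE, adjusted p = 9.90e-06). Lcn2 differed by -0.06, which was not called, in NNK-treated arrays. Of 26 ciliated cell genes, 11 were higher and 3 lower, with 7 higher without week 12 and 1 lower without week 6, week 9 or any of 6 single arrays. The master regulator of motile cilia, Foxj1, differed by 0.31 ± 0.047 (SE, adjusted p = 2.13e-04), the dynein light chain gene Dynlrb2 by 0.56 ± 0.084 (SE, adjusted p = 1.96e-04), and the ciliary tip gene Sntn by -0.75 ± 0.082 (SE, adjusted p = 2.06e-05).

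Club cell and alveolar genes gave calls in both directions. Of 19 club cell genes, 5 were higher and 4 lower: the secretoglobin gene Scgb3a2 differed by 0.54 ± 0.047 (SE, adjusted p = 4.08e-06), and Scgb1a1 (-0.07) was not called. Without week 12, 3 club cell genes were higher. Of 25 alveolar type 2 genes, 4 were higher and 9 lower, the lower ones with Hc among them, and without week 6 or without week 12 the higher calls numbered 2. Cd36, a fatty acid transporter, was higher by 0.50 and the lysozyme gene Lyz1 lower by -0.43. Of 15 alveolar type 1 genes, 4 were higher and 1 lower, and Akap5, a kinase-anchoring protein, had the widest difference at 0.64 ± 0.039 (SE, adjusted p = 2.70e-07). That direction rests on few arrays: the higher type 1 calls numbered 1 without the first C3H array of week 6 or without week 12, 2 without week 6, the second A/J array of week 6 or the second C3H array of week 9, and on the deposited scale 1 gene was higher and 2 lower.

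**Figure D4:**
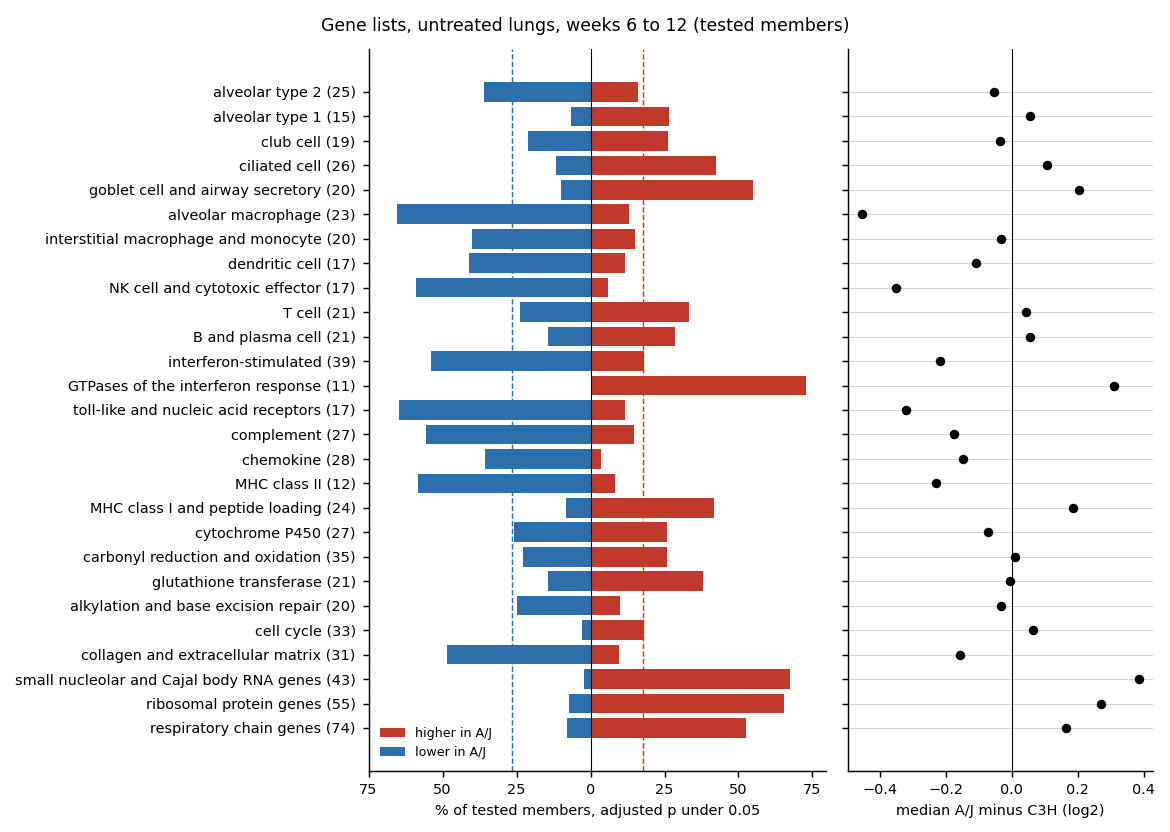
Share of the tested members of 27 gene lists (number tested in brackets) that were called higher (red, right) or lower (blue, left) in A/J, and the median A/J minus C3H difference of each list (log2). Dashed lines mark the shares over all genes, 17.7% and 26.5%. Among the lists other than the groups formed by gene symbol, alveolar macrophage genes reach farthest past them to the left and GTPase genes to the right. These lists and their members were chosen with earlier results of these data known.

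Genes of NNK metabolism gave calls in both directions. NNK is activated by cytochrome P450 hydroxylation, reduced by carbonyl reductases, and its products are conjugated or repaired. Of 27 tested P450 genes, 7 were higher and 7 lower, with a median of -0.07, and 4 were higher without week 6 or its first C3H array alone. Cyp1a1, the classical target of the dioxin receptor, measured 7.67, 7.99 and 8.75 in A/J lungs, against 7.18, 7.31 and 7.61 in C3H lungs, a difference of 0.76 ± 0.17 (SE, adjusted p = 0.00297). Cyp4f15 (0.50) and Cyp4f18 (0.47) were higher and Cyp7b1 (-0.48) lower, whereas Cyp2f2, the abundant club cell enzyme, differed by -0.05 and was not called. Of 35 carbonyl reducing and oxidising genes, 9 were higher and 8 lower, led by the aldo-keto reductase gene Akr1c14 at 0.77 ± 0.049 (SE, adjusted p = 4.03e-07).

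Of 21 glutathione transferase genes, 8 were higher and 3 lower, and the higher ones include Gstm6 (0.82), Mgst2 (0.77) and Mgst3 (0.51). Without week 6 or without week 12 the higher calls numbered 4. The NRF2 target Nqo1, a quinone reductase, was higher by 0.38 ± 0.067 (SE, adjusted p = 6.70e-04), within a list of 21 with 7 higher and 5 lower, where 2 were higher without week 6 and 4 without week 12. Of 20 alkylation and base excision repair genes, 2 were higher and 5 lower. The lower ones include the DNA glycosylase gene Mpg (-0.40) and the polymerase gene Polb (-0.42), and Alkbh3, a demethylase of alkylated bases, was higher (0.49). Mgmt, the methyltransferase that removes methyl groups from guanine, ranged over 7.87 to 8.12 in A/J arrays, against 7.83 to 8.02 in C3H arrays, a difference of 0.04 ± 0.052 (SE, adjusted p = 0.601). Of 33 cell cycle genes, 6 were higher and 1 lower, against a background of 44.3% called. The higher calls numbered 3 without the second A/J array of week 12, either C3H array of week 9 or the second C3H array of week 12, 0 without week 9 or week 12 and 1 with group means on all 36 arrays.

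Matrix genes were more often lower in A/J. Of 31 tested, 3 were higher and 15 lower, among them the microfibril gene Mfap5 (-0.94 ± 0.071 (SE, adjusted p = 1.25e-06)), Timp1 (-0.45), Col6a3 (-0.48) and the elastic fibre genes Loxl1 (-0.42) and Fbln5 (-0.33). Without the arrays of week 6, 8 lower calls were made. Of 29 blood endothelial genes, 6 were higher and 8 lower: von Willebrand factor, Vwf, was lower (-0.72 ± 0.043 (SE, adjusted p = 2.15e-07)) and the VEGF receptor gene Kdr higher (0.39 ± 0.048 (SE, adjusted p = 5.43e-05)). The higher endothelial calls numbered 3 without any of 5 single arrays, without week 9 or week 12 or on the deposited scale, and 2 without week 6.

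In 3 groups formed by gene symbol after the values were seen, more genes were higher than lower in A/J. Of 43 small nucleolar and Cajal body RNA genes, 29 were higher and 1 lower, and 17 of them were at least 1.5-fold higher. Their mean level ranged over 9.69 to 10.14 in A/J arrays, against 9.166 to 9.429 in C3H arrays, so that the strains did not overlap. Snord15b (1.40) and Snora44 (1.08) join the genes named above. Of 55 ribosomal protein genes, 36 were higher and 4 lower, with Rps12 at 0.84 ± 0.059 (SE, adjusted p = 6.99e-07), Rpl24 at 0.82 and Rps28 at 0.75. Of 74 respiratory chain genes, 39 were higher and 6 lower, with Uqcrq at 0.80 and Atp5k at 0.99. The medians of these groups in NNK-treated arrays were 0.47, 0.26 and 0.22.

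For microRNA genes the arrays read precursors or host transcripts and not the mature molecules. Of 126 tested, 34 were higher and 10 lower, and 14 were higher without week 6 and 18 without week 9. The mature sequences of the 4 described here show which seeds they carry, with bases 2 to 8 in capitals, from RefSeq with GRCm38.p6.
mmu-miR-680: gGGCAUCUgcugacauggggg
mmu-miR-181b-5p: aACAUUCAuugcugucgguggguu
mmu-miR-15a-5p: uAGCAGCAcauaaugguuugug
mmu-miR-99a-5p: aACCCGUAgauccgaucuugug
The 4 seeds differ. Mir680-1 on chromosome 6 and Mir680-2 on the X chromosome both encode the first sequence. Mir680-2 measured 9.51, 10.05 and 11.27 in A/J lungs, against 8.05, 8.20 and 8.52 in C3H lungs, a difference of 2.03 ± 0.25 (SE, adjusted p = 5.53e-05), and Mir680-1 differed by 1.34 ± 0.39 (SE, adjusted p = 0.0151) with overlapping arrays and with no call without week 6 (0.0552) or week 9 (0.11). Mir181b-1 was higher by 1.08 ± 0.17 (SE, adjusted p = 2.56e-04), Mir15a by 0.49 ± 0.089 (SE, adjusted p = 8.16e-04) and Mir99a by 0.56 ± 0.12 (SE, adjusted p = 0.00207), but in NNK-treated arrays these 3 differed by 0.06, 0.09 and 0.16, none of them called. These 3 and the groups of microRNA, olfactory receptor and zinc finger genes were picked after the values were seen. Of 267 tested Zfp zinc finger genes, 24 were higher and 93 lower in A/J, and of 159 olfactory receptor genes 37 were higher and 8 lower. The called shares were 43.8% for zinc finger, 28.3% for olfactory receptor and 34.9% for microRNA genes, against 44.3% over all genes. In the same order, their medians were -0.09, 0.09 and 0.10 here, and -0.04, -0.07 and -0.07 in NNK-treated arrays. Without week 6, 57 zinc finger genes were lower and 13 olfactory receptor genes higher, and the olfactory count was 23 or 24 without the first A/J array of week 6, either C3H array of week 6 or the first C3H array of week 9.

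Genes past 1.5-fold stood next to each other at several places. Among the 528 that could be placed in the annotation, 59 lay in 26 runs of 2 or 3 neighbouring tested genes with the same direction. Runs of 3 were Eya4, Rps12 and Snora33, the last of which lies in an intron of Rps12, the Naip, Gbp and Igkv genes named above, C4b, C4a and Stk19, and the neighbours Zfp991, Zfp985 and Rps19-ps3 and Fam122a, Tmem252 and Pgm5. The protease genes Adamdec1 and Adam28 on chromosome 14 were 1.18 and 1.04 higher. The called share of a chromosome lay between 41.0% and 47.6%.

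A dependence of the strain difference on the week was called in few genes. The interaction of strain and week was called for 20 genes (0.134%), against 1542 of 14953 at an unadjusted p under 0.05. With 2 arrays for each strain and week, genes that were not called may still depend on the week. Of the 20, 7 belong to a list of keratinised epithelium, the cornified layer of skin and oesophagus. Lor, which encodes the cornified envelope protein loricrin, measured 12.74 and 13.59 in the 2 A/J arrays of week 6, against 6.99 to 7.17 in all C3H arrays. The other 4 A/J arrays lay between 7.03 and 7.40. Krt1, a keratin of the same layer, measured 14.37 and 14.77 in those 2 arrays and 9.42 or less in every other array. Krt10, Hrnr, Lce1e and Crct1 showed the same pattern, with week 6 differences of 3.63, 5.20, 3.36 and 2.69, and the differences of Krt10 were -0.01 at week 9 and -0.05 at week 12. None of these 4 was called over all weeks, but without week 12 all were, at adjusted p = 0.0338 for Crct1 and 0.0404 to 0.0435 for the others. Crct1 was also called without week 9 and without any of 5 single arrays of weeks 9 and 12, and Lce1e without the first A/J array of week 12 (0.0434). The differences of Lor over all weeks (2.14 ± 0.82 (SE, adjusted p = 0.0497)) and of Krt1 (1.58 ± 0.73 (SE, adjusted p = 0.0985)) therefore rest on 2 arrays, and without week 6 that of Lor was 0.14 (adjusted p = 0.153). The interaction was called for 11 to 71 genes when 1 array was left out, with 71 without the first A/J array of week 9, 36 without the second A/J array of week 6, 11 without the second C3H array of week 9, and 13 and 12 without the first and the second C3H array of week 12. Lung parenchyma does not normally make cornified envelope proteins such as loricrin, and the source of these transcripts was not tested.

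Genes of other tissues also varied among A/J arrays. The atrial hormone gene Nppa measured 12.40 and 9.74 at week 6, 7.98 and 8.77 at week 9 and 11.93 and 11.06 at week 12 in A/J arrays, against 6.69 to 8.07 in C3H arrays. Its difference was 3.08 ± 0.5 (SE, adjusted p = 3.83e-04), with 1 A/J array inside the C3H range, and the atrial light chain gene Myl7 differed by 1.40 ± 0.28 (SE, adjusted p = 0.00177). Myl3 (-0.64), also a gene of heart muscle, was lower in A/J. Of 22 cardiac genes, 9 were higher and 3 lower, and their mean ranged over 9.046 to 10.28 in A/J arrays, against 8.87 to 9.593 in C3H arrays. The higher calls numbered 17 without the second C3H array of week 9 or without week 9, 3 without week 6 and 2 without week 12. The adipose list had 2 higher and 0 lower of 10, with means of 8.947 to 10.63 in A/J arrays, against 9.164 to 9.713 in C3H arrays, and had 0 higher without week 6, week 12 or any of 6 of their arrays and 4 higher without week 9. Albumin, Alb, measured 10.19 and 11.71 in the A/J arrays of week 9 and 7.49 or less in the other A/J arrays, against 7.62 to 10.33 in C3H arrays. It was not called over all 12 arrays, but it was lower in A/J with array weights, without week 9 (adjusted p = 0.0128), without its second A/J array (0.0181) and without weeks 6 and 9 (0.0062). The part of such tissue in the other results was not tested. With the arrays of week 6 left out, 4273 genes were called and 495 at 1.5-fold or more, and with weeks 6 and 9 left out, 1641 and 449.

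**Figure D5:**
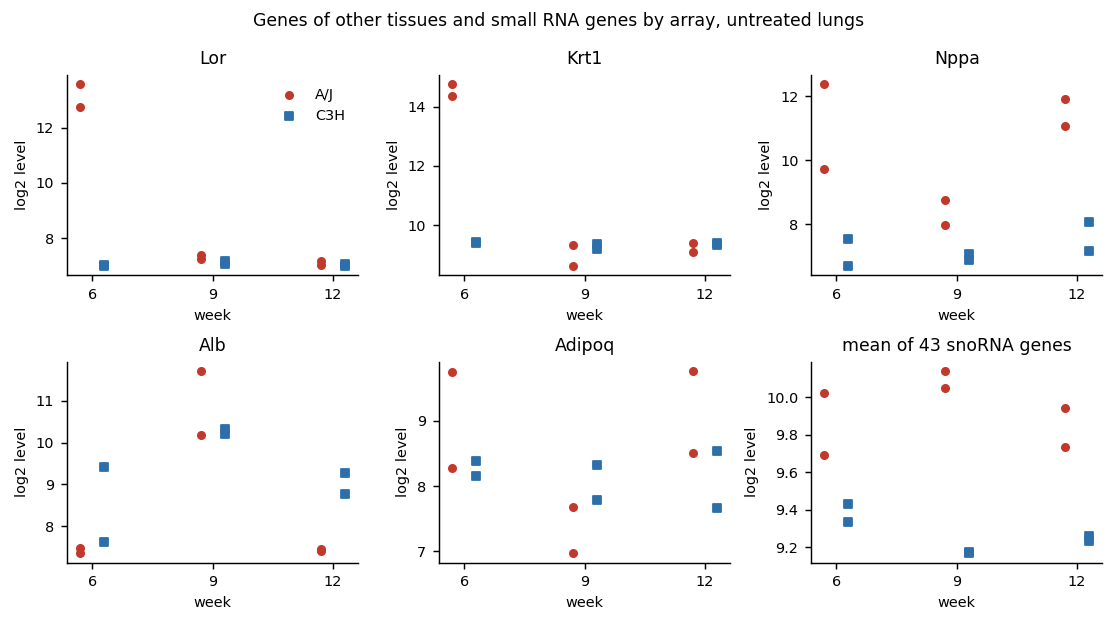
Level (log2) of 5 genes and of the mean of 43 small nucleolar RNA genes in each array by week, with A/J as circles left of C3H as squares. Lor and Krt1 are high in the 2 A/J arrays of week 6 alone, Nppa is high in A/J arrays of weeks 6 and 12, and the small nucleolar RNA mean is higher in every A/J array.

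Clock genes follow the time of day at which tissue is taken. The 3 weeks were described at the outset as having similar levels of these genes in both strains, so the values here are a description. Of 13 clock genes that peak with the repressors, 0 were higher and 3 lower, and of 4 that peak with the activators, 0 were higher and 1 lower. Without the first C3H array of week 12 the lower repressor-phase calls numbered 5. Dbp, an output gene with a wide daily swing, ranged over 11.52 to 12.04 in A/J arrays, against 11.75 to 12.16 in C3H arrays, a difference of -0.20, and Arntl, the core activator, differed by 0.26, a difference that was called under 8 alternatives, among them the deposited scale and group means. The repressor gene Per2 and the output gene Hlf differed by -0.46 and -0.51. At weeks 0 and 3 the same genes differed by -1.80 for Dbp, 1.25 for Arntl, -1.56 for Per2 and -1.68 for Hlf. Xist, which is transcribed from the inactive X chromosome, was at 12.71 to 12.79 in A/J arrays, against 12.56 to 12.64 in C3H arrays, a difference of 0.13 ± 0.035 (SE, adjusted p = 0.011) that was not called without week 6 (0.0606) or week 12 (0.115).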

How the data were processed

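The 36 arrays measured total lung RNA on Affymetrix Mouse Gene 1.0 ST arrays. The authors deposited linear intensities per probe set, for which the submitters' processing notes name the PLIER method and the program Affymetrix Expression Console. Program versions, PLIER settings and the annotation build are not given in the sources used here. The platform annotation gave 1 gene symbol to 21789 of 35556 probe sets, several to 1621 and none to 12146, and 21698 of the first kind matched the gene table. Names were taken only from probe sets with 1 symbol, with the probe set of highest mean level standing for a gene.

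Values were put on the scale log2(intensity + 16) and quantile-normalized over all 36 arrays, and genes under the 25th percentile of mean level were left out, which kept 14953 of 19938 genes. Strain differences were fitted with limma 3.58.1 in R 4.3.3 on the 12 arrays with week as a block, and p-values were adjusted by Benjamini-Hochberg over all tested genes, with a threshold of 0.05. The interaction of strain and week was an F test in limma. The same fit was made on the NNK-treated arrays of weeks 6 to 12 and on the untreated arrays of weeks 0 and 3, which share no array with the main comparison. The fits were also run on simulated data with known differences, with independent noise and the same SD in both strains. The measured arrays had a wider spread in A/J and genes that were high together in some arrays. The simulation therefore cannot vouch for the calls made here. The number of arrays limits the precision. Neither scan dates nor any other batch were in the files, so batches were not analysed here.

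Named genes are the 15 largest called differences in each direction whose strains do not overlap, up to 6 called members with the smallest p and the first 3 members of each described list, all measured members of the lists of strain alleles, Pas1 genes and sex-linked genes, up to 6 genes with the smallest interaction p, and family members or neighbours of these. Members and lists were chosen with earlier results of these data known. Genes outside the rule, chosen after their values were seen, are Arg2, Lrg1, Rgs18, Snord14e, Igkv8-30, Csf2rb, Csf2rb2, Oas1a, Oas1c, Fabp1, Itgax, Pparg, Cyp2f2, Tlr9, Muc5b, Adamdec1, Rpl24, Uqcrq, Atp5k, Snord15b and Snora44. Alternatives tried were the deposited scale, normalization of the 12 arrays alone, another pseudocount, filter, variance model, design and probe set, array weights, a minimum size by treat, and leaving out single arrays or weeks. Array numbers in the titles do not pair the samples: deviations of same-numbered arrays correlated at -0.01, 0.05 and -0.02 in weeks 6, 9 and 12. Promoter and microRNA sequences are from RefSeq with GRCm38.p6.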

Additional observations from a re-analysis of the deposited data

Results flagged for a closer look

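A sample far from the other 5 of its strain was found 8 times among 74 strain groups of 37 genes, by Dixon's test with a critical value of 0.625. Chance flags about 1 in 20 groups. Among A/J arrays, Xcr1 was 7.71 in the first array of week 6, against 8.38 to 8.55 in the others, and Pigr was 10.40 in the same array, against 10.10 to 10.21. Chil3 was 7.99 in the second A/J array of week 12, against 8.49 to 8.74 in the others, and Klk1b22 was 4.55 in the second A/J array of week 9, against 5.31 to 5.67. Among C3H arrays, H2-T10 was 8.76 in the second array of week 12, against 8.33 to 8.49 in the others, and Xist was 12.56 in the same array, against 12.61 to 12.64. Ifit3 was 11.89 in the first C3H array of week 9, against 11.57 to 11.68, and Krt1 was 9.21 in that array, against 9.34 to 9.42. None of these arrays crossed into the range of the other strain except that of Krt1, whose strains overlap.

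The strain difference depended on the week in 20 genes by the interaction test, 7 of them genes of keratinised epithelium that were high in the A/J arrays of week 6. Outside that list, Crct1 (2.69), Asprv1 (1.51), Dmkn (1.27) and Hal (0.84) also had their largest positive difference at week 6. Mir145a (1.63), Nr4a3 (0.97), Csrnp1 (0.98) and Mir26a-1 (1.30) had their largest positive difference at week 9. Nr4a3 was not called over all weeks, and without week 9 it was lower in A/J, at -0.92 (adjusted p = 3.73e-04). G0s2, a lipolysis inhibitor, also had its largest positive difference at week 9, at 1.59. Osr1, a transcription factor of lung mesenchyme, had its largest negative difference there, at -1.32.

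Outside the named genes, 2137 probe sets without a gene symbol differed between the strains.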

How the results depend on the processing

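Over the alternatives, the count of called genes left the range within 1.5 times of 6621 with week 6 left out, at 4273, with treat at a minimum of 1.5-fold, at 135, and with weeks 6 and 9 left out, an alternative chosen after seeing the data, at 1641. Leaving out a week leaves fewer arrays to test, and treat demands a larger size. The count was 5419 without week 9 and 5612 without week 12, and why week 6 moved it further was not tested. The count at 1.5-fold or more was 135 under treat, against 529. The interaction count of 20 was 9 with the 50th percentile filter and 5 without week 6, the second chosen after seeing the data. Leaving out 1 array at a time gave 5725 to 6740 called genes, 492 to 556 at 1.5-fold or more, 11 to 71 with an interaction, 6467 to 7241 in NNK-treated arrays and 2589 to 5624 at weeks 0 and 3. The last count was 2628 without the first A/J array of week 0, 2634 without the second C3H array of week 0 and 2589 without the second C3H array of week 3. On the deposited scale 34.5% of calls were higher in A/J, against 40.0%, and no scaling moved the median of all genes by over 0.1. With array number as a replicate block, 6182 genes were called and 523 at 1.5-fold or more. The block ended the calls of Fabp4, Lor and Oas1c among the genes in the text. Of 193 called genes in the text, 55 stayed called under every alternative that tested them (the 50th percentile filter tested 150 of the 213 genes in the text). Treat, which asks for a difference beyond 1.5-fold, alone ended 138 of the calls. Without weeks 6 and 9, 40 lost their call, and without week 6 alone, 10 did. Rgs18 reversed, to a difference of 0.0102, without weeks 6 and 9, and the cause was not tested. Values near the floor set by the added 16 are compressed, and no background level was available.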

Other observations

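Of 10 tested genes of mast cells, basophils and eosinophils, 5 were higher and 3 lower in A/J, and 3 were higher without week 6 and 1 lower without week 9. Cpa3, the carboxypeptidase of mast cell granules, ranged over 8.47 to 9.33 in A/J arrays, against 7.60 to 8.23 in C3H arrays, a difference of 1.05 ± 0.13 (SE, adjusted p = 4.74e-05), and it was 1.70 in NNK-treated arrays. The histamine-forming enzyme gene Hdc differed by 0.60 ± 0.08 (SE, adjusted p = 8.88e-05) and the tryptase gene Tpsb2 by 0.24, while the transcription factor gene Gata2 was lower (-0.35). Of 9 platelet genes, 0 were higher and 4 lower, a share near the background of 44.3%. Beside Ppbp, the adhesion receptor subunit gene Gp9 differed by -0.99 ± 0.15 (SE, adjusted p = 1.98e-04) and the platelet tubulin gene Tubb1 by -0.68 ± 0.088 (SE, adjusted p = 7.22e-05), against -0.29 and -0.14, neither called, in NNK-treated arrays.

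The DNA-sensing IFI200 genes of chromosome 1 differed in both directions. Within a list of 16 with the inflammasome genes, 3 were higher and 9 lower. Ifi203 was higher in A/J by 0.75 ± 0.11 (SE, adjusted p = 1.86e-04) and Ifi207 lower by -0.95 ± 0.078 (SE, adjusted p = 2.40e-06), and these paralogs may share probes. Pycard, the inflammasome adaptor, was higher by 0.44 ± 0.051 (SE, adjusted p = 3.33e-05). In lymphatic endothelium, Mmrn1, a secreted glycoprotein of these cells and of platelets, differed by -1.25 ± 0.068 (SE, adjusted p = 1.01e-07) and the guidance protein gene Reln by -0.60 ± 0.053 (SE, adjusted p = 3.90e-06), with 1 higher and 4 lower among 7 tested, where the higher call was lost without week 6, week 12 or any of 3 arrays of week 6. Of 25 genes of sterol and fatty acid synthesis, 8 were higher and 3 lower (5 higher without week 6), and Insig1, the sterol-regulated brake on this pathway, was higher by 0.65 ± 0.059 (SE, adjusted p = 4.86e-06). Of 26 p53 target genes, 5 were higher and 7 lower: the kinase genes Plk2 (0.78) and Plk3 (-0.68) went opposite ways. The higher p53 target calls numbered 2 without week 6 or its second A/J array and 3 without week 12 or the first C3H array of week 6.

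Beyond the named genes, 2137 of 6670 probe sets with no gene name (32.0%) were called, 1068 higher and 1069 lower in A/J.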
